A study of Mus musculus with 12 samples.

Results

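The 40 genes described here cover the uptake and breakdown of glucose, the export of lactate, the response to low oxygen, and Txnip with 2 related alpha-arrestins. They were chosen by name, as 6 transporters and hexokinases, 15 enzymes from glucose 6-phosphate to lactate, 3 regulators of fructose bisphosphate, 7 genes of monocarboxylate transport and pyruvate dehydrogenase, 6 genes of the hypoxia pathway, and 3 alpha-arrestins. All 40 matched a row by symbol, in 41 of the 56980 gene IDs of the deposited table, and 38 were among the 15110 genes with enough counts to test. RNA was sequenced from macrophages that had been grown from mouse bone marrow over 7 days with medium from L929 cells, a fibroblast line that secretes macrophage growth factor. The study asked about the role of Regnase-3, an RNA-degrading zinc finger protein encoded by Zc3h12c, when RANK-expressing macrophages polarize. The libraries formed 4 groups of 3. The group cKO_M1 was made from mice labelled RankCre-Regnaes3cKO, a conditional knockout, and was stimulated with 100 ng/ml lipopolysaccharide (LPS) plus 10 ng/ml interferon-gamma. WT_M1 was made from wildtype cells with the same stimulation. The groups cKO_M0 and WT_M0 were the same genotypes without it. The labels pair the M1 and M0 names with a protocol given as with or without stimulation. In these mice the Cre recombinase carries the name of Rank, the gene Tnfrsf11a, and no control with Cre alone is described, so effects of the recombinase and of the lost gene cannot be told apart. The labels do not say that the replicates came from separate animals or cultures, and p-values measure only the spread between these samples, which may be technical.

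Glycolysis converts glucose to pyruvate in a chain of cytosolic enzymes. Lactate dehydrogenase turns pyruvate into lactate, which leaves the cell through monocarboxylate transporters, while pyruvate dehydrogenase sends pyruvate into the mitochondrion unless a pyruvate dehydrogenase kinase blocks it. Macrophages given LPS are known to raise glycolysis and HIF-1alpha, the transcription factor that prolyl hydroxylases of the Egln family mark for degradation when oxygen is present and that drives many glycolytic genes. TXNIP is an alpha-arrestin that binds thioredoxin and lowers glucose uptake by removing glucose transporters from the cell surface, and its transcription is known to follow glucose metabolites through the factors MondoA and ChREBP.

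Library totals lay between 41721452 and 42197986 counts. The 40 genes, with 1 row each, held 1.75% to 2.02% of the counts in the M1 libraries and 0.854% to 1.02% in the M0 libraries. Zc3h12c had 3463, 3652 and 4484 counts in cKO_M1 against 6020, 6392 and 5424 in WT_M1, and 703, 944 and 751 counts in cKO_M0 against 878, 819 and 794 in WT_M0. It was lower in the knockout in M1 (log2 fold change -0.68, edgeR adjusted p = 0.00101) and not called in M0 (-0.07, adjusted p = 0.809). A gene total would also count any exons outside a deleted part, so it is an incomplete check of the knockout. How complete the deletion was, in M1 or in M0, was not tested. The 10 macrophage markers summed to 15060 to 19490 CPM in every library (CPM is a gene's count per 10 to the power 6 counts of a library, scaled by TMM for library size and composition). Single markers were less stable than the sum. In each genotype 5 of the 10 were called higher and 4 lower in M1 than in M0, and 70.2% of all genes were called in the knockout and 71.4% in wildtype. Lyz2, the most abundant, averaged 5219 CPM in cKO_M1 and 4878 in WT_M1, against 9834 in cKO_M0 and 9855 in WT_M0. In M1, 2 markers were called higher and 1 lower in the knockout, beside 18.6% of all genes called. The markers of the stimulated state, 11 genes with Nos2 and Acod1 as the most abundant, summed to 23350 to 25600 CPM in cKO_M1 and 18490 to 20270 CPM in WT_M1, against 148 to 226 CPM in cKO_M0 and 162 to 192 CPM in WT_M0. In M1, 5 of these 11 were called higher and 1 lower in the knockout. Of the other cell types, B and plasma cell markers summed to 0.483 to 0.794 CPM in cKO_M1, 3.16 to 5.20 in WT_M1, 33.0 to 62.4 in cKO_M0 and 53.7 to 70.6 in WT_M0, and megakaryocyte and platelet markers, led by Pf4, to 96.1 to 105.5 CPM in cKO_M1, 127.6 to 152.1 in WT_M1, 144.4 to 185.1 in cKO_M0 and 166.8 to 187.2 in WT_M0. Neutrophil markers summed to 240.2 to 280 CPM in cKO_M1, 273 to 337 in WT_M1, 24.7 to 31.8 in cKO_M0 and 35.9 to 53.7 in WT_M0, mostly from Csf3r, while Elane, Retnlg and Cxcr2 were at 0 in M1. Summed markers of T and NK cells, erythroid cells, mast cells and basophils, and stromal cells stayed at or under 0.400, 1.97, 4.22 and 5.22 CPM in every library, and those of dendritic cells, mostly the interferon-inducible Bst2, were 654 to 912 CPM in cKO_M1, 772 to 873 in WT_M1, 128 to 192 in cKO_M0 and 133 to 143 in WT_M0. The part of these differences in the results below was not tested, and in bulk RNA fewer cells of a type and less RNA per cell cannot be told apart.

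Per gene length, the pyruvate kinase gene Pkm was the most abundant of the 40 genes in every group. Its level was 4005 ± 143 TPM in cKO_M1, 3712 ± 186 in WT_M1, 2284 ± 141 in cKO_M0 and 2017 ± 322 in WT_M0 (TPM is the count divided by gene length, scaled to the same sum in each library; SD, n = 3). In cKO_M1 the next were Hk3, Aldoa and Pgk1 at 2245 ± 87.9, 2198 ± 70.0 and 2123 ± 44.0 TPM, which did not differ among each other beyond these spreads. In WT_M1 the same 3 genes stood at 2075 ± 177, 2133 ± 137 and 2040 ± 51.2 TPM. In M0 the order differed: Aldoa was second, at 1213 ± 45.8 TPM in cKO_M0 and 1121 ± 112 in WT_M0, and Pgk1 and Ldha followed without a gap between them, at 785 ± 30.8 and 782 ± 65.7 TPM in cKO_M0 and 656 ± 75.8 and 654 ± 76.7 TPM in WT_M0. Fbp1, the gluconeogenic fructose bisphosphatase, had at most 10 counts in a library, and Pdk4, a pyruvate dehydrogenase kinase of fasted tissues, at most 9, so neither was tested. The 15 enzyme genes from Gpi1 to Ldhb summed to 12750, 13180 and 13220 TPM in cKO_M1, 11600, 12060 and 11980 in WT_M1, 6840, 7559 and 7320 in cKO_M0, and 5889, 7273 and 5976 in WT_M0. The 3 cKO_M1 sums lay above all WT_M1 sums, while in M0 WT replicate 5 lay within the knockout range.

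Several steps are served by related genes, whose shares differed between states. The main gene was the same in all 4 groups for aldolase (Aldoa, 99.5%, 99.6%, 97.5% and 96.9% of the summed TPM in cKO_M1, WT_M1, cKO_M0 and WT_M0) and lactate dehydrogenase (Ldha, 99.7%, 99.8%, 99.2% and 98.4%), as it was for hexokinase, enolase and monocarboxylate transport. Among hexokinases, which trap glucose in the cell, Hk3 held 93.3% ± 0.215 of the summed TPM in cKO_M1, 93.9% ± 0.463 in WT_M1, 77.8% ± 1.70 in cKO_M0 and 79.9% ± 0.411 in WT_M0. Among phosphofructokinases, the committed step of glycolysis, the liver-type Pfkl held 71.3% ± 0.624 in cKO_M1 and 69.1% ± 1.68 in WT_M1, against 40.02% ± 2.73 in cKO_M0 and 36.5% ± 0.976 in WT_M0, and the muscle-type Pfkm held 4.33% ± 0.0911 in cKO_M1 and 3.98% ± 0.703 in WT_M1, against 22.8% ± 3.57 in cKO_M0 and 26.4% ± 1.88 in WT_M0. These shares separated the stimulated from the unstimulated libraries in both genotypes. Of the 2 monocarboxylate transporters, the lactate exporter Slc16a3 (MCT4) held 94.1% ± 0.424 in cKO_M1, 88.1% ± 3.16 in WT_M1, 71.3% ± 3.42 in cKO_M0 and 71.3% ± 2.21 in WT_M0. Of the pyruvate dehydrogenase kinases, Pdk1 held 45.2% ± 2.25 in cKO_M1 and 34.4% ± 1.96 in WT_M1, where Pdk3 was the larger at 55.0% ± 1.72, against 55.9% ± 2.13 in cKO_M0 and 54.8% ± 1.56 in WT_M0. Of the 3 alpha-arrestins, Txnip held 55.6% ± 7.22 in cKO_M1 and 19.9% ± 6.02 in WT_M1, against 95.03% ± 0.148 in cKO_M0 and 95.3% ± 0.218 in WT_M0, and in WT_M1 Arrdc4 was the main one at 69.5% ± 8.56.

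**Figure D1:**
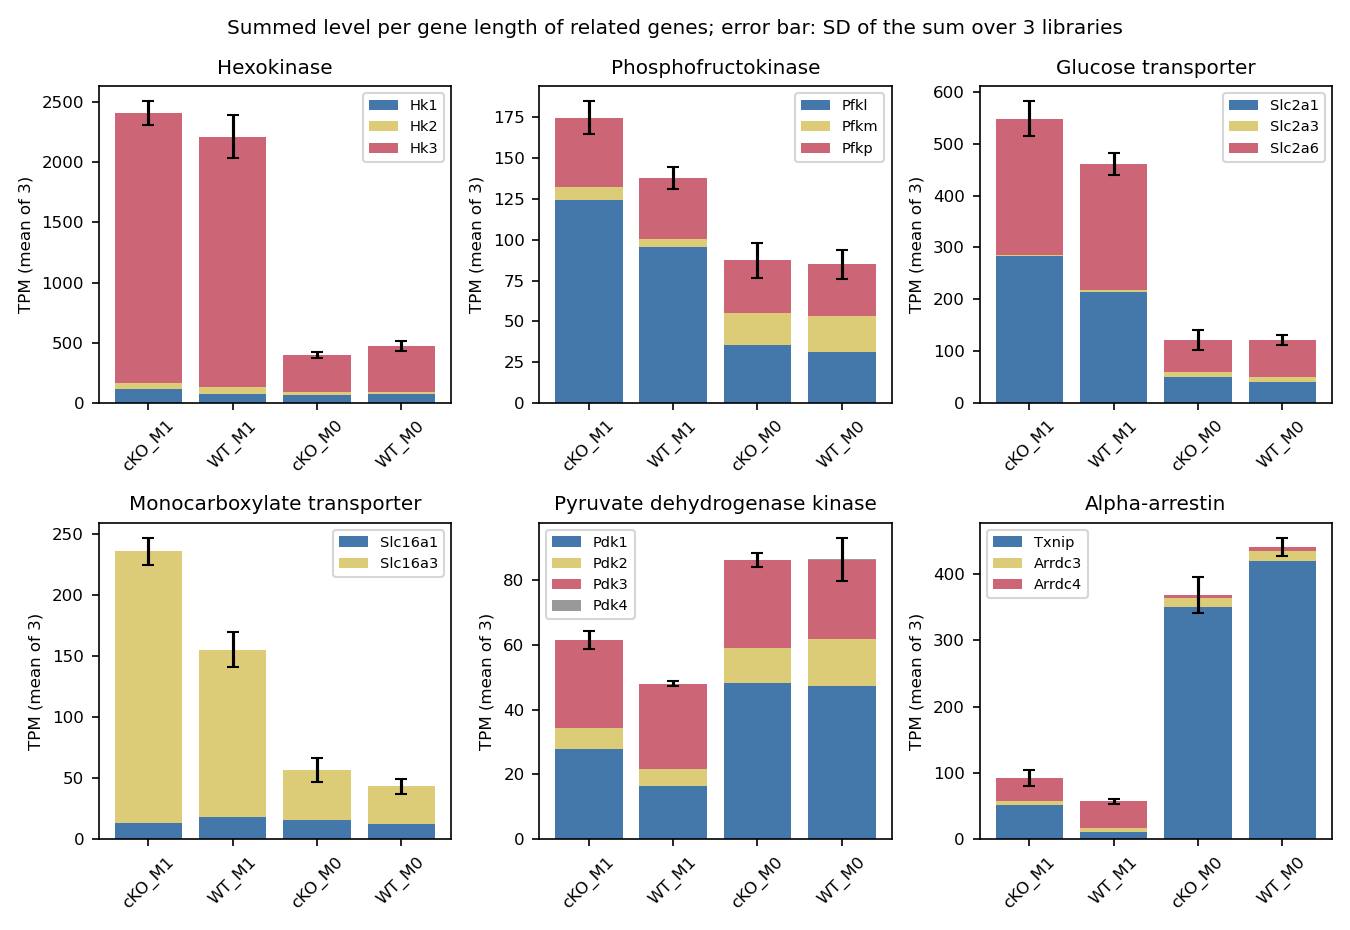
Stacked bars give the mean level per gene length (TPM, 3 libraries) of related genes in cKO_M1, WT_M1, cKO_M0 and WT_M0, with the SD of the sum. Hk3 fills most of the hexokinase bar in every group. Pfkl fills 71.3% of the phosphofructokinase bar in cKO_M1 and 69.1% in WT_M1, against 40.02% in cKO_M0 and 36.5% in WT_M0. Txnip fills 55.6% of the alpha-arrestin bar in cKO_M1 against 19.9% in WT_M1.

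The first comparison asked how the genes responded to LPS and interferon-gamma in each genotype. In both, glycolysis, lactate export and several hypoxia genes were higher in M1, while Txnip was among the genes that fell. In the knockout 27 of the 38 tested genes rose and 8 fell (edgeR's quasi-likelihood test, Benjamini-Hochberg adjusted p under 0.05), and in wildtype 26 rose and 10 fell. Of all 15110 genes, 70.2% were called in the knockout (34.2% higher and 36.0% lower) and 71.4% in wildtype (34.2% higher and 37.1% lower), so most of the tested genes changed. The median log2 fold change of the 38 genes was 1.27 in the knockout and 1.22 in wildtype, beside -0.04 and -0.07 over all genes. With library totals in place of TMM factors, the median of all genes shifted by -0.53 in the knockout and -0.58 in wildtype, 24 genes were higher and 12 lower in the knockout and 23 and 12 in wildtype. Over all genes that scaling gave 2778 higher and 8691 lower in the knockout and 2769 and 9000 in wildtype, against 5168 and 5441, and 5175 and 5612, with TMM. The 2 responses are separate measurements of cKO and WT libraries, and they share libraries with the comparisons of genotype below.

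**Figure D2:**
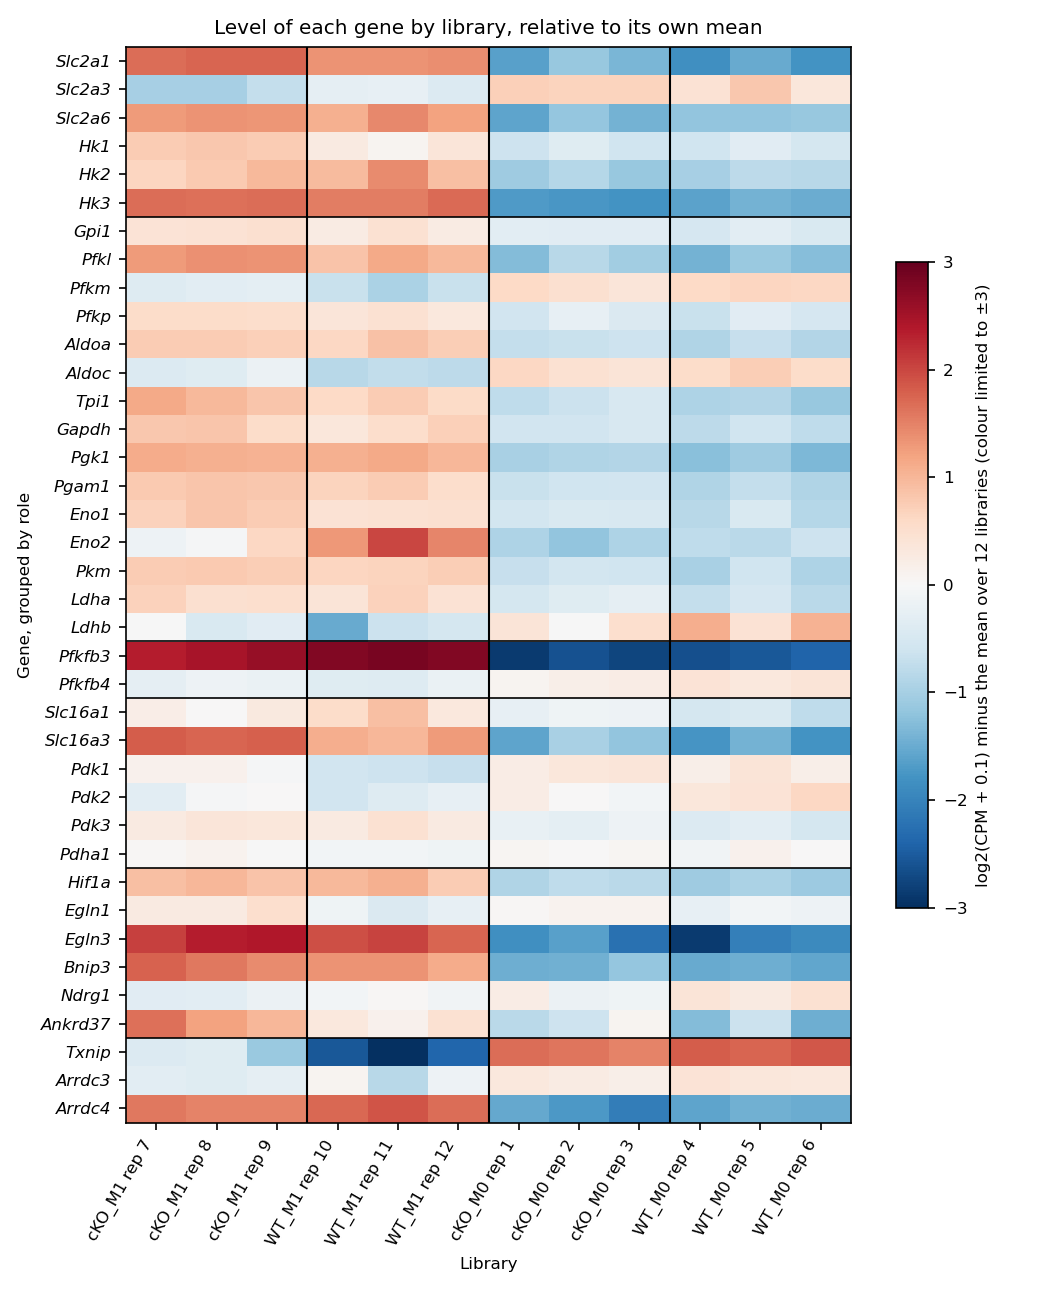
Each row is 1 of the 38 tested genes and each column 1 of the 12 libraries, in the order cKO_M1, WT_M1, cKO_M0, WT_M0; colour gives log2 CPM, with a small offset, minus the gene's mean. Most rows are higher in the 6 M1 libraries, with Pfkfb3 and Egln3 the strongest, while Txnip is lowest in WT_M1 and Eno2 is highest there.

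Of transporters and hexokinases, 5 of 6 rose in both genotypes and Slc2a3 fell. Hk3 had 2973, 2966 and 2975 CPM in cKO_M1 against 287, 280 and 270 in cKO_M0, and 2700, 2727 and 3055 CPM in WT_M1 against 309, 351 and 333 in WT_M0. Its log2 fold change was 3.41 (SE 0.08) in the knockout and 3.10 (SE 0.08) in wildtype, with edgeR adjusted p of 1.57e-14 and 4.09e-14. Slc2a1, which encodes the main glucose transporter GLUT1, had 343, 363 and 365 CPM in cKO_M1 against 34.9, 49.3 and 41.8 in cKO_M0, and 277, 274 and 282 CPM in WT_M1 against 30.2, 38.0 and 31.2 in WT_M0. All M1 libraries lay far above all M0 libraries, at log2 fold changes of 3.09 in the knockout and 3.07 in wildtype. Slc2a6, which encodes the transporter GLUT6, had 298, 309 and 304 CPM in cKO_M1 against 40.9, 54.3 and 46.0 in cKO_M0, and 255, 333 and 282 CPM in WT_M1 against 53.3, 54.0 and 55.8 in WT_M0, and rose by 2.69 and 2.41. Hk2, the hexokinase known to be induced by HIF-1alpha, rose by 1.83 and 1.97. Hk1, the common mitochondrial form, had 343, 354 and 342 CPM in cKO_M1 against 132, 157 and 135 in cKO_M0, and 244, 215 and 263 CPM in WT_M1 against 134, 160 and 141 in WT_M0, and rose by 1.29 and 0.73. The Hk1 libraries of the 2 genotypes lay together in M0 and apart in M1. Slc2a3, which encodes GLUT3, had 6.11, 6.10 and 7.38 CPM in cKO_M1 against 20.3, 19.6 and 19.4 in cKO_M0, and 10.1, 10.3 and 9.20 CPM in WT_M1 against 16.5, 21.6 and 15.6 in WT_M0. It fell by 1.60 on the log2 scale in the knockout and by 0.86 in wildtype.

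Of the 15 enzyme genes, 12 rose in both genotypes. The 3 others were the minor forms Pfkm, Aldoc and Ldhb. Pgk1, phosphoglycerate kinase, had 1745, 1713 and 1682 CPM in cKO_M1 against 413, 432 and 442 in cKO_M0, and 1695, 1772 and 1621 CPM in WT_M1 against 342, 389 and 318 in WT_M0 (log2 fold change 1.998 in the knockout and 2.278 in wildtype). Pfkl rose by 2.39 and 2.26, Tpi1 (triose phosphate isomerase) by 1.61 and 1.63, Aldoa (aldolase) by 1.42 and 1.57, Pgam1 (phosphoglycerate mutase) by 1.427 and 1.498, and Pkm by 1.37 and 1.52, each with no overlap between M1 and M0 libraries. Gapdh rose by 1.28 and 1.25, Eno1 (the widespread enolase) by 1.256 and 1.162, Ldha (the lactate-forming dehydrogenase subunit) by 0.94 and 1.17, Pfkp (platelet-type phosphofructokinase) by 0.95 and 0.88, and Gpi1 (glucose phosphate isomerase) by 0.78 and 0.73. Eno2, the neuronal enolase, had 17.4, 18.8 and 29.9 CPM in cKO_M1 against 10.04, 8.499 and 10.06 in cKO_M0, and 48.0, 77.2 and 53.7 CPM in WT_M1 against 11.4, 10.9 and 12.5 in WT_M0. It rose by 1.21 in the knockout and 2.36 in wildtype, so that its WT_M1 libraries were the highest of all 12. Aldoc, the brain aldolase, had 13.5, 13.8 and 15.8 CPM in cKO_M1 against 27.6, 24.5 and 23.4 in cKO_M0, and 10.0, 10.6 and 10.4 CPM in WT_M1 against 26.1, 29.8 and 26.4 in WT_M0, and fell by 0.81 and 1.40. Pfkm had 8.75, 9.16 and 9.34 CPM in cKO_M1 against 17.4, 16.02 and 14.7 in cKO_M0, and 7.17, 5.86 and 7.18 CPM in WT_M1 against 17.5, 18.0 and 17.6 in WT_M0, and fell by 0.82 and 1.39. For both genes the M1 libraries lay below all M0 libraries, and the WT_M1 libraries were the lowest. Ldhb, the heart-type subunit, fell in wildtype (-1.80) and had a log2 fold change of -0.59 in the knockout that did not pass (edgeR adjusted p = 0.0586) but did in 8 of the other settings, DESeq2 among them.

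The largest response was that of Pfkfb3, whose product makes the phosphofructokinase activator fructose 2,6-bisphosphate. It had 767, 836 and 923 CPM in cKO_M1 against 20.4, 24.5 and 22.2 in cKO_M0, and 1025, 1083 and 1028 CPM in WT_M1 against 24.0, 25.7 and 28.4 in WT_M0. The M1 level was 37.6-fold higher in the knockout and 40.1-fold higher in wildtype (log2 fold change 5.23 and 5.33, SE 0.11 each, edgeR adjusted p = 3.72e-15 and 3.95e-15). Its relative Pfkfb4 fell, to 37.4, 40.7 and 39.3 CPM in cKO_M1 against 48.3, 51.6 and 52.8 in cKO_M0 and to 35.2, 34.5 and 39.5 CPM in WT_M1 against 60.2, 56.6 and 59.9 in WT_M0 (-0.38 and -0.69). Slc16a3 rose by 3.01 and 2.78, with M1 libraries at 245 CPM or more and M0 libraries at 62.5 CPM or less. Slc16a1, which encodes the transporter MCT1, rose by 0.35 in the knockout, where library totals turned it to -0.19, and by 1.19 in wildtype. Pdk3 rose by 0.55 and 0.75, calls that library totals ended, and Pdha1, a subunit of pyruvate dehydrogenase, was not called (0.00 and -0.10; with library totals -0.54 and -0.69). Pdk1, the HIF-1alpha-responsive kinase, had 80.3, 80.2 and 72.2 CPM in cKO_M1 against 85.5, 93.6 and 94.6 in cKO_M0, and 49.5, 47.6 and 45.4 CPM in WT_M1 against 83.3, 96.7 and 82.5 in WT_M0. It fell by 0.23 in the knockout and 0.88 in wildtype, where the WT_M1 libraries stood far below the other 9. The 2 small knockout changes were lost without any 1 of cKO_M1 replicate 7 or 9 or cKO_M0 replicate 1 or 3 for Slc16a1, and of cKO_M1 replicate 9 or cKO_M0 replicate 2 or 3 for Pdk1, where it lay between -0.77 and -0.18 over all settings. Pdk2 had a like pattern: it fell in wildtype (-0.87) and was not called in the knockout (-0.16, 95% interval -0.45 to 0.12).

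Of the hypoxia genes, Egln3, the oxygen sensor PHD3, had 8.81, 10.8 and 11.3 CPM in cKO_M1 against 0.504, 0.589 and 0.354 in cKO_M0, and 8.10, 8.596 and 7.12 CPM in WT_M1 against 0.196, 0.420 and 0.472 in WT_M0. It rose by 4.41 (SE 0.23) in the knockout and 4.44 (SE 0.24) in wildtype, on 10 to 30 counts in an M0 library. Bnip3, a mitophagy receptor and HIF-1alpha target, had 96.2, 85.3 and 75.5 CPM in cKO_M1 against 10.2, 10.3 and 12.7 in cKO_M0, and 72.0, 72.2 and 61.7 CPM in WT_M1 against 9.80, 10.1 and 9.59 in WT_M0. The rise was 2.95 in the knockout and 2.80 in wildtype, and all M1 libraries lay above all M0 libraries. Hif1a itself rose by 1.74 and 1.97, and Ankrd37, a HIF-1alpha target of low level, by 1.79 and 1.54. Ndrg1, a stress-responsive gene also induced by hypoxia, went against these and fell by 0.26 and 0.43, the knockout value lost in 5 of 18 settings. Egln1, the oxygen sensor PHD2, rose by 0.28 in the knockout and was not called in wildtype (-0.11, 95% interval -0.30 to 0.09). Its direction rests on the scaling, since library totals gave -0.26 and -0.69, and its knockout call was lost without cKO_M1 replicate 9 or cKO_M0 replicate 1.

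The 3 alpha-arrestins moved apart under stimulation. Txnip had 66.95, 69.16 and 40.52 CPM in cKO_M1 against 281, 267 and 250 in cKO_M0, and 14.98, 8.27 and 16.76 CPM in WT_M1 against 313, 298 and 323 in WT_M0. Its M1 level was 22.1% of the M0 level in the knockout and 4.29% in wildtype (log2 fold change -2.18, SE 0.21, and -4.54, SE 0.23; edgeR adjusted p = 1.30e-07 and 7.18e-11). Arrdc4, a relative also reported to lower glucose uptake, had 52.6, 49.2 and 49.3 CPM in cKO_M1 against 5.99, 5.20 and 4.11 in cKO_M0, and 57.5, 64.5 and 56.3 CPM in WT_M1 against 5.77, 6.39 and 6.14 in WT_M0. It rose by 3.30 (SE 0.12) in the knockout and 3.28 (SE 0.12) in wildtype, opposite to Txnip. Arrdc3, known as a regulator of beta-adrenergic receptors, had 13.5, 13.2 and 13.9 CPM in cKO_M1 against 21.1, 20.1 and 18.9 in cKO_M0, and 18.0, 9.44 and 15.3 CPM in WT_M1 against 22.6, 21.3 and 21.1 in WT_M0, and fell by 0.57 and 0.61.

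The promoters of Txnip and Arrdc4 are shown because these genes moved in opposite directions under stimulation. The sequences are the 250 bases before the annotated start, from RefSeq on GRCm38.p6, 5′ to 3′ on the gene's strand; the count table was made on GRCm39, so they were matched by symbol only. The RefSeq table held 38 of the 40 genes in 54 promoters, without Slc2a3 and Ndrg1. In Txnip (chr3:96557707-96557956, plus strand) the capitals mark a pair of CACGAG spaced by 5 bases, with its first base at -85, the arrangement known as a carbohydrate response element. The pair, CACGAG followed by any 5 bases and another CACGAG, searched on both strands, was chosen after the sequence was seen. It occurs in 1 of 32851 promoters, that of Txnip itself. Because these letters were taken from Txnip, the count does not measure how unusual its promoter is. Pairs with other letters were not searched for in any promoter, so the marks do not compare Txnip and Arrdc4 on equal terms. In Arrdc4 (chr7:68749239-68749488, minus strand) the capitals mark the E-box CACGTG at -193, a motif found in 8 of the 38 genes (21.1%) and in 6.86% of all 27025 genes of the table.
Txnip: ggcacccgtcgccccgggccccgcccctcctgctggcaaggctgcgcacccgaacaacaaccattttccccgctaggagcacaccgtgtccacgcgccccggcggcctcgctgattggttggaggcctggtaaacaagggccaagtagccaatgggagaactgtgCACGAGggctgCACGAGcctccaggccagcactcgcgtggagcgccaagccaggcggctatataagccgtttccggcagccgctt
Arrdc4: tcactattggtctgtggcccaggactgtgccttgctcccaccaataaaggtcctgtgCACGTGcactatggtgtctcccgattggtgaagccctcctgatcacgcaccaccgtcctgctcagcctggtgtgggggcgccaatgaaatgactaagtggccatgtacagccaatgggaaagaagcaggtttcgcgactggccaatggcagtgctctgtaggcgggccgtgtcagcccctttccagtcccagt

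**Figure D3:**
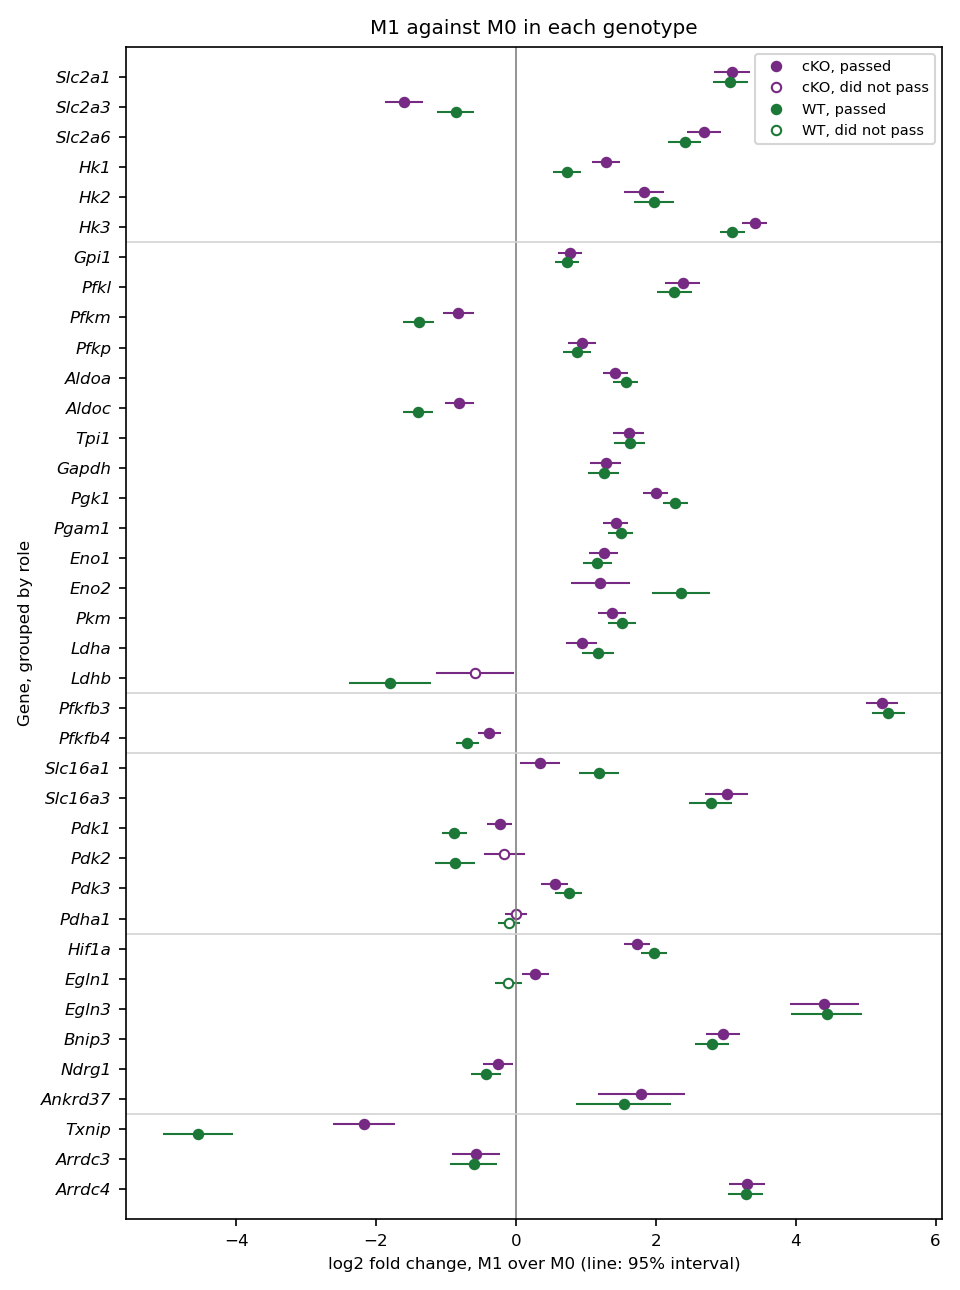
Points give the log2 fold change of M1 over M0 for each of the 38 tested genes, in cKO (purple) and WT (green), with 95% intervals; filled points passed the test. Pfkfb3 stands at 5.23 and 5.33 and Txnip at -2.18 and -4.54, and the Txnip intervals of the genotypes do not meet.

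The second comparison asked what the knockout changed in stimulated cells. Txnip was the gene with the largest difference, 4.41-fold higher in cKO_M1. The glucose transporter Slc2a1, the hexokinase Hk1, the lactate exporter Slc16a3, the kinase Pdk1 and the oxygen sensor Egln1 were higher by 1.28-fold to 1.63-fold, while Eno2, Slc2a3, Pfkfb3 and Slc16a1 were lower. In all 13 of 38 genes rose and 4 fell, beside 18.6% of all 15110 genes called (8.98% higher and 9.67% lower). The median log2 fold change was 0.14 over the 38 genes and 0.02 over all genes. Library totals in place of TMM gave 13 higher and 3 lower among the 38, and 1982 higher and 1239 lower among all genes against 1357 and 1461. Leaving out 1 library moved the number called higher to 7 (without cKO_M1 replicate 8 or WT_M1 replicate 10) or 8 (without WT_M1 replicate 11 or 12), and the number called lower to 2 (without cKO_M1 replicate 7 or 8 or WT_M1 replicate 11). Calls over all genes fell as well in these fits. Those higher numbered 709, 1048, 671 and 1217, in the order named, against 1357 with every library. Those lower numbered 1217, 985 and 987, in the order named, against 1461. The calls of Txnip, Pdk1, Egln1, Hk1, Slc16a3, Aldoc, Eno2 and Slc2a3 held in all 18 other settings tried, and the other 9 calls were each lost in 3 to 9 of them.

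Of the alpha-arrestins, Txnip had 66.95, 69.16 and 40.52 CPM in cKO_M1 against 14.98, 8.27 and 16.76 in WT_M1. The lowest knockout library, replicate 9, was still above the highest wildtype library (log2 fold change 2.14, SE 0.22, 95% interval 1.68 to 2.60, edgeR adjusted p = 3.66e-05). Across the settings the log2 fold change of Txnip lay between 1.88 and 2.34. Arrdc4, at 52.6, 49.2 and 49.3 CPM in cKO_M1 against 57.5, 64.5 and 56.3 in WT_M1, had a log2 fold change of -0.24 that did not pass (edgeR adjusted p = 0.131, 95% interval -0.46 to -0.01), although its libraries did not overlap. Arrdc3, at 13.5, 13.2 and 13.9 CPM in cKO_M1 against 18.0, 9.44 and 15.3 in WT_M1, overlapped and was not called (-0.07, 95% interval -0.42 to 0.27). An antisense gene, Gm15441, overlaps Txnip by 606 bases and had 41 counts in all libraries together, beside 95774 for Txnip.

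**Figure D4:**
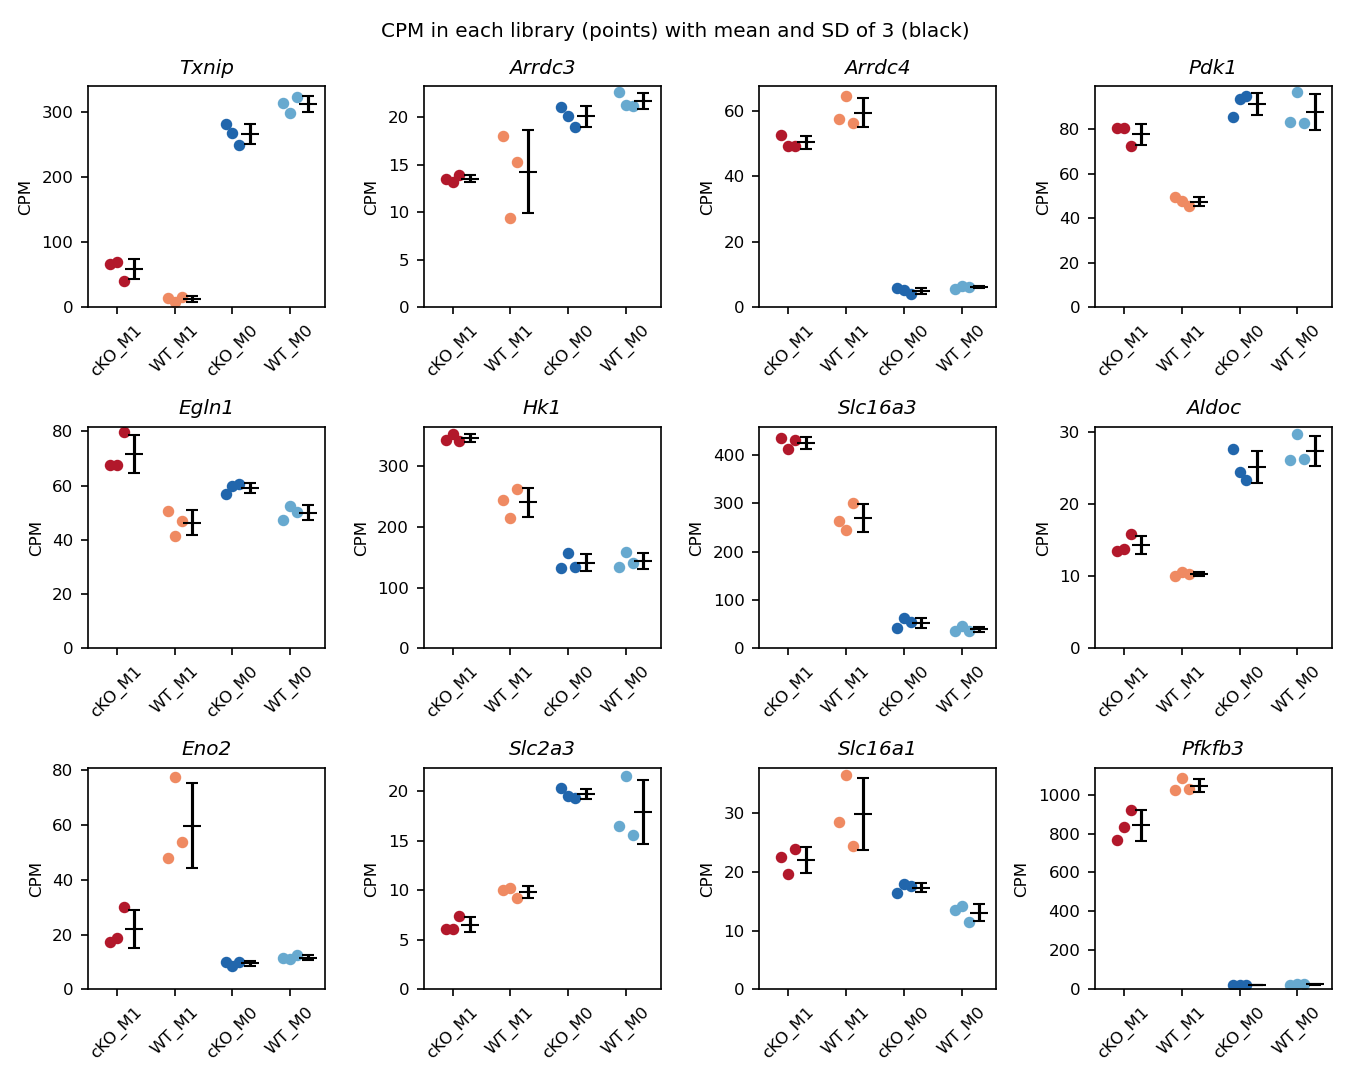
Points give CPM in each library of cKO_M1, WT_M1, cKO_M0 and WT_M0 for 12 genes, with the mean and SD of 3 in black; every axis starts at 0. Txnip is high in M0, lowest in WT_M1 and intermediate in cKO_M1, and Eno2 stands at 48.0 to 77.2 CPM in WT_M1 against 17.4 to 29.9 CPM in cKO_M1.

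Of the transporters and hexokinases, 2 of 6 rose and 1 fell. Hk1 had 343, 354 and 342 CPM in cKO_M1 against 244, 215 and 263 in WT_M1, with all knockout libraries higher (log2 fold change 0.52, SE 0.09, edgeR adjusted p = 0.00147). Slc2a1, at 343, 363 and 365 CPM in cKO_M1 against 277, 274 and 282 in WT_M1, rose by 0.36 (SE 0.11, adjusted p = 0.0319), a call lost without any 1 of the M1 libraries other than cKO_M1 replicate 7 (0.33 to 0.42 over all settings). Slc2a3 went the other way, with 6.11, 6.10 and 7.38 CPM in cKO_M1 against 10.1, 10.3 and 9.20 in WT_M1 (-0.59, SE 0.13, adjusted p = 0.00567). It is the least abundant of the 3 glucose transporter genes in M1, at 2.51 ± 0.374 TPM in cKO_M1 and 3.67 ± 0.173 TPM in WT_M1, beside 283 ± 20.1 and 214 ± 8.64 TPM for Slc2a1. Slc2a6 (0.07), Hk3 (0.07) and Hk2 (-0.30) were not called. The 95% interval of Hk3, the main hexokinase, was -0.09 to 0.23.

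Of the 15 enzyme genes, 5 rose and 1 fell, and the 9 not called included the abundant Pkm, Aldoa, Pgk1, Gapdh and Ldha. Aldoc, at 13.5, 13.8 and 15.8 CPM in cKO_M1 against 10.0, 10.6 and 10.4 in WT_M1, rose by 0.47 (SE 0.10, edgeR adjusted p = 0.00508), and Pfkm by 0.43 (SE 0.11, adjusted p = 0.0128), which no longer passed without WT_M1 replicate 11 or cKO_M1 replicate 8, or with only these 2 groups fitted (0.33 to 0.49 over all settings). Pfkm shares 18 bases with Senp1 on the other strand, in the GENCODE vM21 annotation of the older build. Longer overlaps on the other strand were those of Pfkp with Pitrm1 and of Pdha1 with Map3k15. Pfkp shares 748 bases with Pitrm1, which had 27203 counts beside 72021 for Pfkp. Pdha1 shares 603 bases with Map3k15, which had 1847 counts beside 28612 for Pdha1. Aldoc and Pfkm both had no overlap between the groups and lay at low levels beside Aldoa and Pfkl. Tpi1, at 1284, 1145 and 1030 CPM in cKO_M1 against 877, 982 and 875 in WT_M1, rose by 0.34 (adjusted p = 0.0286), Pfkl by 0.34 (adjusted p = 0.0468) and Eno1 by 0.31 (adjusted p = 0.0375). These 3 calls were lost in 4, 7 and 6 of the 18 other settings, all of them settings without 1 library, cKO_M1 replicate 8 and WT_M1 replicates 10 and 12 in each, with log2 fold changes of 0.25 to 0.40, 0.27 to 0.40 and 0.26 to 0.36. Eno2 had 17.4, 18.8 and 29.9 CPM in cKO_M1 against 48.0, 77.2 and 53.7 in WT_M1, and its knockout level was 37.0% of wildtype (log2 fold change -1.44, SE 0.19, 95% interval -1.84 to -1.03, adjusted p = 0.000170). The enolase genes thus differed in direction, with Eno1 holding 98.3% ± 0.5004 of their summed TPM in cKO_M1 and 94.6% ± 1.34 in WT_M1. Intervals of the genes not called were narrow for Aldoa (-0.18 to 0.18), Pgk1 (-0.16 to 0.19), Pkm (-0.13 to 0.26) and Ldha (-0.16 to 0.28). Gpi1 (0.13), Pfkp (0.16), Gapdh (0.19), Pgam1 (0.15) and Ldhb (0.62, on 1.68 ± 0.298 CPM in cKO_M1 and 1.09 ± 0.395 in WT_M1) were the others.

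Of the regulators, Pfkfb3 fell, with 767, 836 and 923 CPM in cKO_M1 against 1025, 1083 and 1028 in WT_M1 (log2 fold change -0.31, SE 0.09, edgeR adjusted p = 0.0261; lost without cKO_M1 replicate 7 or 8 or WT_M1 replicate 11, -0.40 to -0.26 over all settings), and Pfkfb4 was not called (0.10). At the exit of the pathway, Slc16a3 had 435, 411 and 430 CPM in cKO_M1 against 263, 245 and 302 in WT_M1, 1.58-fold higher (0.66, SE 0.13, adjusted p = 0.00326). Slc16a1, with 22.5, 19.7 and 24.0 CPM in cKO_M1 against 28.6, 36.5 and 24.5 in WT_M1, fell by 0.43 on the log2 scale (SE 0.13, adjusted p = 0.0327). The groups of Slc16a1 nearly touched, at 24.0 CPM for the highest knockout and 24.5 CPM for the lowest wildtype library, and its call was lost in 6 of 18 settings, library totals and leaving out any 1 of cKO_M1 replicates 7 and 8 and WT_M1 replicates 10 and 11 among them (-0.57 to -0.28 over all settings). Pdk1 had 80.3, 80.2 and 72.2 CPM in cKO_M1 against 49.5, 47.6 and 45.4 in WT_M1, with every knockout library higher by a wide gap (0.71, SE 0.08, 95% interval 0.53 to 0.89, adjusted p = 8.58e-05). Pdk2 (0.30, adjusted p = 0.146), Pdk3 (0.00) and Pdha1 (0.14) were not called.

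Of the 6 hypoxia genes, 3 rose and 0 fell. Egln1 had 67.4, 67.6 and 79.6 CPM in cKO_M1 against 50.8, 41.5 and 46.8 in WT_M1, without overlap (log2 fold change 0.63, SE 0.09, edgeR adjusted p = 0.000302). Ankrd37, with 4.49, 3.26 and 2.80 CPM in cKO_M1 against 1.73, 1.503 and 1.91 in WT_M1, was 2.05-fold higher (1.04, SE 0.29, adjusted p = 0.0196) on 99 to 158 counts in cKO_M1 and 50 to 65 in WT_M1. It no longer passed without WT_M1 replicate 10 or 11 or cKO_M1 replicate 7 (0.81 to 1.165 over all settings). Ankrd37 shares 57 bases with Ufsp2 on the other strand, which had 22320 counts in all libraries beside 790 for Ankrd37, and the strand setting of the counting was not given in the sources used here, so its value is uncertain. Bnip3 rose by 0.32 (SE 0.10, adjusted p = 0.0434), and that call was lost in 9 of 18 settings, among them those without cKO_M1 replicate 7 or 8 or any WT_M1 library (0.22 to 0.39). Hif1a (-0.02, 95% interval -0.20 to 0.16), Egln3 (0.38, adjusted p = 0.156) and Ndrg1 (-0.23) were not called.

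Of the 40 genes, 8 rose with stimulation in both genotypes and were also called higher in cKO_M1 than in WT_M1. Shown are those of lactate export, glucose uptake and the hypoxia pathway, which hold 2 or more cores of the hypoxia response element, and Tpi1, which holds none, chosen after the sequences were seen. Of the other 3, Hk1 holds 3 cores in 1 promoter and 0 in another, Eno1 holds 1 or 2, and Pfkl holds 1. The number of cores did not set the genes shown apart. Slc2a6 and Pdk3, not called in cKO_M1 against WT_M1, hold 4 each, and Slc16a1, called lower, holds 2. Capitals mark the core, ACGTG or GCGTG on either strand, outside any CACGTG. The promoters are those of Slc16a3 (chr11:120948817-120949066, plus strand), Slc2a1 (chr4:119108495-119108744, plus), Bnip3 (chr7:138909507-138909756, minus), Ankrd37 (chr8:45999851-46000100, minus) and Tpi1 (chr6:124814159-124814408, minus). Either core occurs in 33 of the 38 genes (86.8%) and in 38.3% of all genes of the table, which holds genes of every type, and a match is a description of these letters and not a binding site. The 5 genes without a core in this window were Eno2, Fbp1, Gpi1, Pdk2 and Tpi1, of which Eno2 fell and Tpi1 rose in cKO_M1, while Gpi1 and Pdk2 were not called and Fbp1 was not tested.
Slc16a3: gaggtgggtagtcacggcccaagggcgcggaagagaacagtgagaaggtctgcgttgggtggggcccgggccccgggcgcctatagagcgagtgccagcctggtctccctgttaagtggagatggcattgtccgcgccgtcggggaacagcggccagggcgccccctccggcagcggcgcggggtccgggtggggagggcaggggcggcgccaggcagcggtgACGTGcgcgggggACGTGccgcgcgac
Slc2a1: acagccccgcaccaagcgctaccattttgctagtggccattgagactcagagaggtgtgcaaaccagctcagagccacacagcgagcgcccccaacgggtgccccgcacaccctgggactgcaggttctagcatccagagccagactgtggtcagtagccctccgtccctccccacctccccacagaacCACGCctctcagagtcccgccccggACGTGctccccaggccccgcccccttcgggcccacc
Bnip3: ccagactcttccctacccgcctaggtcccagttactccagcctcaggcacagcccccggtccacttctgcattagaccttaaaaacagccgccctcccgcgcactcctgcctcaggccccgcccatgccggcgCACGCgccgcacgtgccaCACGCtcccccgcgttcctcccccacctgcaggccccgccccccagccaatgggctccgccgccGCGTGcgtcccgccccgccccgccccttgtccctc
Ankrd37: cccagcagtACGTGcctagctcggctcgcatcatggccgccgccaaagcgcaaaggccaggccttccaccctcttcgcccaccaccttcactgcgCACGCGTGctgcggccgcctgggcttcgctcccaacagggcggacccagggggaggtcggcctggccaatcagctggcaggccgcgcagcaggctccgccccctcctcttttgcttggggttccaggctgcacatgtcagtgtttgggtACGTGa
Tpi1: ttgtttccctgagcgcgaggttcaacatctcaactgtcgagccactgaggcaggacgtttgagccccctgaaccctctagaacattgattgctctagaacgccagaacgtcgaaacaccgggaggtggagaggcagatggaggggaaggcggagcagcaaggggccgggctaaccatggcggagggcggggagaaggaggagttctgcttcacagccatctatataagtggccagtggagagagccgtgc

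**Figure D5:**
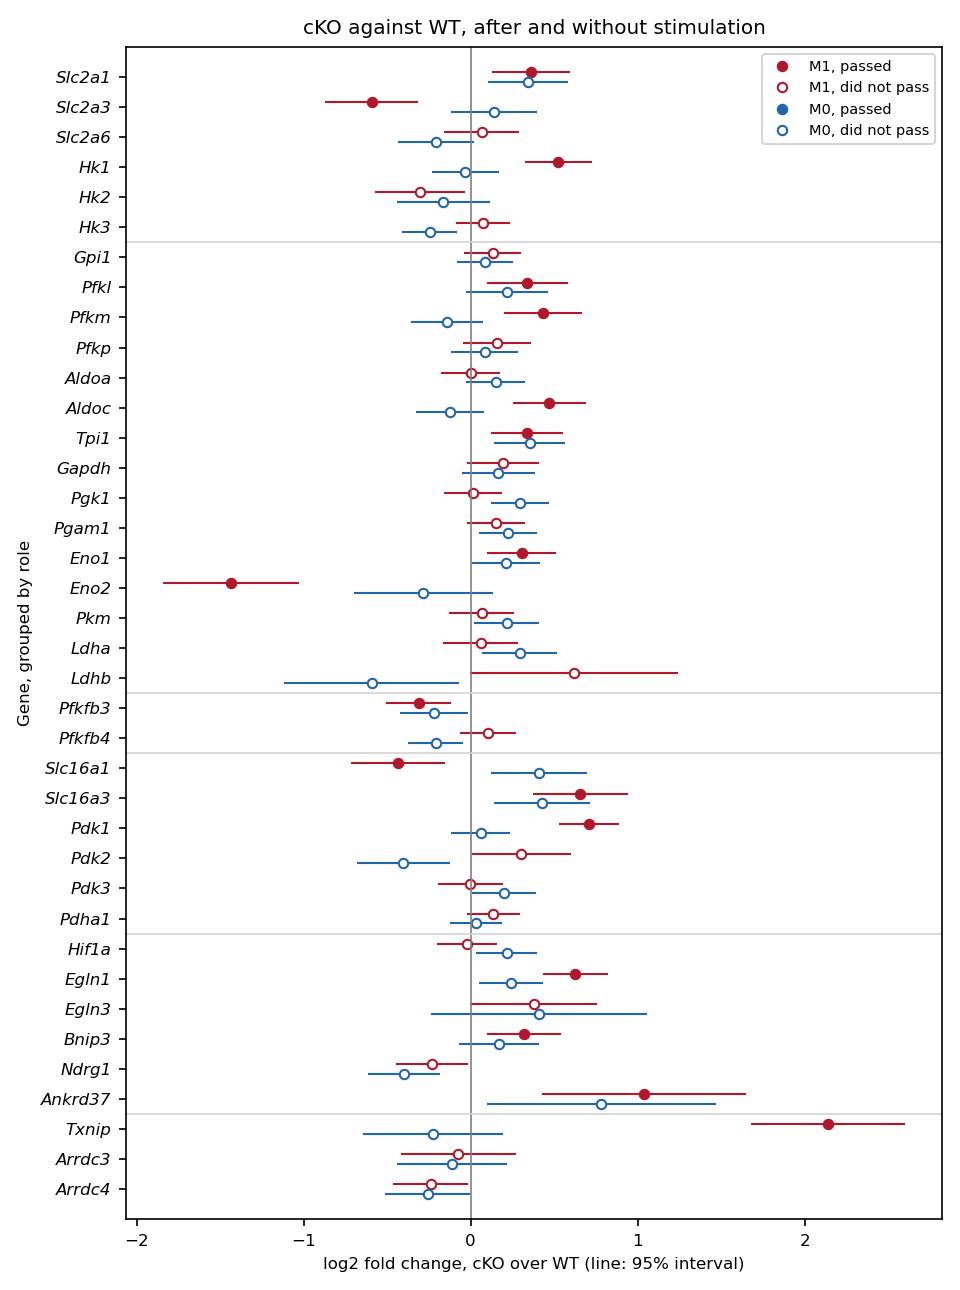
Points give the log2 fold change of cKO over WT for each of the 38 tested genes, in M1 (red) and M0 (blue), with 95% intervals; filled points passed the test at an adjusted p under 0.05. In M1, 17 points are filled, with Txnip at 2.14 and Eno2 at -1.44 the farthest out, and no M0 point is filled.

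The third comparison asked what the knockout changed without stimulation. None of the 38 genes was called by edgeR's quasi-likelihood test, beside 1.61% of all genes (0.662% higher and 0.953% lower), although 20 of the 38, and 18.6% of all genes, had an unadjusted p under 0.05. DESeq2 called 2 higher (Tpi1, Pgk1) and 3 lower (Hk3, Pdk2, Ndrg1), beside 2.70% and 3.06% of all genes. With limma-voom 1 was higher (Pgk1) and 1 lower (Ndrg1), beside 1.59% and 1.66% of all genes. Without the low-count filter edgeR called 6 higher (Slc2a1, Tpi1, Pgk1, Ldha, Slc16a1, Slc16a3) and 1 lower (Ndrg1), beside 2.58% and 1.72% of 27501 genes. Halved counts gave 0 higher and 1 lower (Ndrg1), beside 1.17% and 1.55% of 13700 genes. The median log2 fold change was 0.11 over the 38 genes and 0.01 over all genes, with 23 above 0 and 15 below. The nearest to the threshold was Ndrg1, at 93.7, 71.1 and 73.5 CPM in cKO_M0 against 106.4, 96.8 and 111.0 in WT_M0 (-0.40, SE 0.10, edgeR adjusted p = 0.0593). Pgk1, at 413, 432 and 442 CPM in cKO_M0 against 342, 389 and 318 in WT_M0, did not overlap either (0.30, SE 0.08, adjusted p = 0.0805), and Tpi1 had 344, 370 and 415 CPM in cKO_M0 against 305, 315 and 264 in WT_M0 (0.35, SE 0.10, adjusted p = 0.0897). Txnip had 281, 267 and 250 CPM in cKO_M0 against 313, 298 and 323 in WT_M0, a log2 fold change of -0.23 with a 95% interval of -0.65 to 0.19 (adjusted p = 0.563), although the groups did not overlap. Arrdc4 (-0.26) and Arrdc3 (-0.11) were also not called.

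WT_M0 replicate 5 stood apart from the other two wildtype M0 libraries in the enzyme genes. Pkm had 2632, 2882 and 2831 CPM in cKO_M0 against 2157, 2789 and 2239 in WT_M0, and Eno1 587, 633 and 625 CPM in cKO_M0 against 483, 630 and 479 in WT_M0, where the middle value is replicate 5 in each. Without that library Pgk1 (0.38), Eno1 (0.36), Pkm (0.34) and Slc16a3 (0.56) were called higher and Ndrg1 (-0.45) lower, beside 1.29% and 1.35% of all genes. Without cKO_M0 replicate 1, Slc2a1 (0.46) and Slc16a3 (0.58) were called higher and Ndrg1 (-0.53) lower, beside 0.898% and 1.28%, and without cKO_M1 replicate 9 Ndrg1 (-0.40) was called lower and 0 genes higher, beside 1.66% lower and 1.14% higher.

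The difference between the genotype effects in M1 and M0 was tested as an interaction, which is also the difference between the 2 responses to stimulation. It was called for 9 of 38 genes, 6 higher and 3 lower, beside 8.16% of all genes (4.02% and 4.14%). Txnip led, at 2.37 (SE 0.29, 95% interval 1.75 to 2.99, edgeR adjusted p = 0.000815), followed by Pdk1 at 0.65 (SE 0.12, adjusted p = 0.00497). Slc16a1, with 22.5, 19.7 and 24.0 CPM in cKO_M1 against 28.6, 36.5 and 24.5 in WT_M1 and 16.5, 17.9 and 17.7 CPM in cKO_M0 against 13.6, 14.2 and 11.4 in WT_M0, lay below wildtype in M1 and above it in M0 (-0.84, SE 0.19, adjusted p = 0.0145). These 3 held in all 17 other settings. Leaving out cKO_M0 replicate 3 left 2 called higher, and leaving out cKO_M1 replicate 8 left 3 called higher and 1 lower. Over all genes, calls fell from 608 higher and 625 lower to 291 and 349 in the first fit and 259 and 306 in the second. Aldoc (0.59), Hk1 (0.56), Pfkm (0.57) and Pdk2 (0.71) had a more positive, and Eno2 (-1.15) and Slc2a3 (-0.74) a more negative, knockout effect in M1. Pdk2 had 6.33, 7.69 and 7.98 CPM in cKO_M1 against 5.26, 6.01 and 6.57 in WT_M1, and 9.24, 7.99 and 7.41 CPM in cKO_M0 against 9.98, 10.5 and 12.1 in WT_M0, and passed in neither state on its own. Slc16a3 (0.23), Slc2a1 (0.02), Bnip3 (0.15) and Ankrd37 (0.25) had no called interaction, so their M1 difference was not shown to depend on stimulation. Egln1 stood at 0.39 (adjusted p = 0.0782). Zc3h12c itself had a called interaction of -0.61 (SE 0.17, edgeR adjusted p = 0.0369), as its total was lower in the knockout in M1 and not called in M0. Its part in the interactions of the other genes was not tested.

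Other genes of the same pathways were read from lists that hold none of the 40 genes. In M1, 2 of 23 further glycolysis and pyruvate genes rose in the knockout and 3 fell (median -0.07), and of all tested genes 8.98% were higher and 9.67% lower, which is also the background for the lists that follow. Those that fell included Pdp1 (-0.90, edgeR adjusted p = 0.000233), the phosphatase that reactivates pyruvate dehydrogenase, its subunit gene Pdhb (-0.45) and the monocarboxylate transporter Slc16a7 (-0.38). Of 38 further hypoxia and HIF genes 10 rose and 7 fell (median 0.12), led by Bhlhe40 (-1.77), a transcriptional repressor, Cited2 (0.63), which competes with HIF-1alpha for its coactivators, and Narf (-0.75). Of 18 thioredoxin, arrestin and Mondo genes 4 rose and 3 fell (median 0.01), with the inflammasome sensor Nlrp3 at 0.94, the ubiquitin ligase Nedd4l at -0.95 and the reductase Txnrd3 at -0.91. The pentose phosphate list had 2 of 12 higher and 2 lower, with Prps1 (-0.61), Rpe (-0.28) and H6pd (0.40). The serine and one-carbon list had 0 of 9 higher and 2 lower, which were Phgdh (-1.29), the entry enzyme of serine synthesis, and Mthfd2 (-0.63). In the glycogen and hexosamine list 1 of 12 was lower, the glycogen primer Gyg (-0.98).

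In M0, of the same lists, Lox (lysyl oxidase) fell at -1.63, Ak4 (a mitochondrial adenylate kinase) rose at 1.05 and Arrdc2 fell at -0.51 in the knockout, and no other listed gene was called by edgeR. In wildtype, 7 of the 23 further glycolysis genes were higher and 9 lower in M1 than in M0, a share near the 34.2% and 37.1% of all genes, led by Pdp2 (-1.77), Galm (-1.43) and Pdp1 (1.66), and 28 of the 38 hypoxia genes were higher and 8 lower, led by Ier3 (3.07), Ak4 (5.33) and Ero1l (2.15). Among the thioredoxin, arrestin and Mondo genes 9 rose and 4 fell, led by Txn1 (1.87), Max (1.18) and Mlx (1.21), the last a partner of MondoA and ChREBP. The pentose phosphate list had 5 higher and 6 lower, led by Prps2 (-3.20), Prps1 (-1.88) and Pgd (0.88), the serine list 2 and 6, led by Mthfd2 (2.2), Mthfd1 (-2.12) and Shmt1 (-1.72), and the glycogen and hexosamine list 5 and 5, led by Gfpt1 (1.92), Ugp2 (0.89) and Pygb (-0.76). In the knockout the same 6 lists had 6 higher and 10 lower, 30 and 7, 11 and 5, 4 and 4, 2 and 7, and 8 and 3, in this order, beside 34.2% and 36.0% of all genes.

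Of 11 near-identical copies, 6 were tested, and how the counting treated a read with more than 1 match was not given in the sources used here. Eno1b had 11.1, 11.5 and 10.6 CPM in cKO_M1 against 8.37, 9.35 and 9.61 in WT_M1, and Pgk1-rs7 had 12.2, 12.4 and 11.5 CPM in cKO_M1 against 12.02, 12.17 and 15.15 in WT_M1, small beside Eno1 and Pgk1. Gapdhs, the sperm form, was called higher in cKO_M1 than in WT_M1 (2.56, SE 0.86, edgeR adjusted p = 0.0493), the only copy called in that comparison. That call lay just under the threshold with a wide standard error, and it was not followed in the other settings, so its size is uncertain. In M1 against M0, Pgk1-rs7, Eno1b, Pgam1-ps2 and Gapdh-ps15 were called higher in both genotypes (1.81, 1.11, 1.38 and 1.52 in the knockout and 1.87, 1.11, 1.45 and 1.65 in wildtype), Pgam2 higher in the knockout (0.80) and Gapdhs lower in wildtype (-2.53). Aldoa has a second gene ID in the table with at most 57 counts in a library, which was left out of its values.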

How the data were processed

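RNA sequencing covered 12 libraries of mouse macrophages in 4 groups of 3, taken from the sample labels. The authors deposited raw counts per gene without normalization, next to each gene's length, per the file headers. The submitters' processing notes name Trimmomatic 0.39, HISAT2 2.2.1, featureCounts 2.0.3, SAMtools 1.16.1 and the build GRCm39. How strand and reads with several matches were handled, and which annotation was used, was not given in the sources used here. Symbols matched 52073 of 56980 IDs. Even numbers made up 60.9% of the deposited values from 1 to 10. Counting both mates of a read pair would give such an excess, and whether it was done was not given in the sources used here. If it was, a printed count stands for fewer fragments than its number, which is why halved counts were tried.

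The counts went into edgeR 4.0.16 (R 4.3.3). The function filterByExpr (minimum count 10, minimum total count 15) kept 15110 genes, TMM factors scaled the libraries (0.793 to 0.843 in M1 and 1.20 to 1.23 in M0), and 1 model with a mean for each group took in every library (common biological coefficient of variation 0.111). Each contrast had a quasi-likelihood F-test, with p-values adjusted by Benjamini-Hochberg over the 15110 genes and a threshold of 0.05. A standard error is the log2 fold change divided by the root of F, and intervals are 95% intervals. TPM were computed here from counts and gene length, which is not the length of any 1 transcript, so levels between genes are approximate. No pair of libraries was equal within sampling noise (chi-square per degree of freedom 12.0 to 57.3), so each was counted as 1 sample.

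The 40 genes, the pathway and marker lists and the tests were chosen with earlier results of these data known. Every one of the 40 genes is named. Values in every library are given for Txnip, Arrdc3 and Arrdc4, for up to 6 called genes each way with the smallest p in each comparison, and for others where groups or libraries stand apart, chosen after their values were seen. Of each pathway list up to 3 called genes with the smallest p are named. Overlapping genes were looked up in GENCODE vM21, of the older build GRCm38. Alternatives were library totals, DESeq2 1.42.0, limma-voom (limma 3.58.1), no low-count filter, halved counts, a fit of only the 2 groups compared, and leaving out each library.

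Some results of the pathway and marker lists are not reported here.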

Additional observations from a re-analysis of the deposited data

Results flagged for a closer look

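For 9 of the 38 tested genes the difference between knockout and wildtype in M1 differed from that in M0, by edgeR's test of the interaction over all 15110 genes (adjusted p under 0.05). Of all genes, 8.16% were called (4.02% higher and 4.14% lower). The log2 interaction was 2.37 for Txnip, 0.65 for Pdk1, 0.59 for Aldoc, 0.56 for Hk1, 0.57 for Pfkm and 0.71 for Pdk2. It was -0.84 for Slc16a1, -1.15 for Eno2 and -0.74 for Slc2a3. In the other 17 settings Pdk2 lost its call in 7 and Pfkm in 9, each time with the same direction. Eno2 lost its call without cKO_M1 replicate 8, and Aldoc without cKO_M0 replicate 3. Hk1 lost it without either of these libraries, and Slc2a3 without cKO_M1 replicate 8 or WT_M0 replicate 4 or 6.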

How the results depend on the processing

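No paired analysis was possible because the groups compared share no replicate numbers. In M0, where 0 of 38 genes passed, DESeq2 called 2 higher and 3 lower, limma-voom 1 higher and 1 lower, no low-count filter 6 higher and 1 lower, and halved counts 1 lower. The shares of all genes called under these settings are given with the third comparison. Leaving out 1 library in turn gave 7 to 13 higher and 2 to 5 lower for cKO against WT in M1, 0 to 4 higher and 0 to 1 lower in M0, 25 to 27 higher and 7 to 9 lower for M1 against M0 in cKO, 26 and 10 throughout in WT, and 2 to 9 higher and 1 to 3 lower for the interaction. Over all genes the same fits gave 671 to 1384 higher and 985 to 1698 lower for cKO against WT in M1. In M0 they gave 0 to 202 and 1 to 258, and for the interaction 259 to 784 and 306 to 792. For M1 against M0 they gave 4897 to 5290 and 5045 to 5515 in cKO. In WT these were 4953 to 5341 and 5333 to 5705. The interaction gave 3 higher and 1 lower without cKO_M1 replicate 8, and 2 higher without cKO_M0 replicate 3. Over all genes it gave 259 higher and 306 lower without the first, and 291 and 349 without the second, against 608 and 625 with every library. Fewer samples enter these fits. With library totals, which shift every M1 value down, 3 genes of M1 against M0 in cKO turned negative: Slc16a1 (-0.19), Pdha1 (-0.54) and Egln1 (-0.26). The same scaling ended the M1 against M0 calls of Pdk3 in both genotypes and of Hk1 and Gpi1 in WT. With 3 libraries per group, a gene that was not called may still differ by up to the bounds of its interval.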
